A study of Mus musculus with 146 samples.

Results

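The genes described here are the 10 members of the 2'-5'-oligoadenylate synthetase family that the mouse data name: Oas1a, Oas1b, Oas1c, Oas1d, Oas1e, Oas1f, Oas1g, Oas1h, Oas2 and Oas3. They are 10 of 52605 gene symbols with a value in every cell. The members were selected on measured TPM (a level per transcript length, scaled to a sum of 1000000 in each cell) in these cells. The reason was that Oas1c, Oas1d and Oas1e stood high in cells with high zona pellucida genes. The order of the members across clusters is therefore given as a description. RNA was sequenced from 146 single cells, picked as germ cells from the ovaries of untreated newborn C57/BL6J pups, labelled D0.5 (day 0.5), by Smart-seq2, which copies polyadenylated RNA of full length from 1 cell. The ovaries (5) came from pups of a single litter and were pooled, and no animal is named for a cell, so the cells together count as a single sample, from which no test or standard error was made. Cells were sorted into 3 clusters on 20 genes of oocyte development, none of which is an Oas gene: cluster 1 held 19 cells with high meiotic genes, cluster 2 held 93 cells and cluster 3 held 33 cells with high zona pellucida genes. These clusters were rebuilt here after the published steps on a slightly larger set of cells, with the resolution raised until there were 3. They are not the study's own clusters, whose sizes differ (fewer cells in cluster 2 and more in cluster 3), and are called by number only. One cell was left out because the germ cell gene Ddx4 was at 0 TPM, and in every cell kept it was at 7.49 TPM or more.

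OAS enzymes are sensors of double-stranded RNA. Once bound to it, an active OAS protein joins ATP into short 2'-5'-linked oligoadenylates, which act as second messengers and set off the decay of viral and cellular RNA. Oas1a, Oas1b, Oas1g, Oas2 and Oas3 are known as interferon-induced genes, and Oas1b is the mouse gene of resistance to flaviviruses. The mouse also carries many extra copies of Oas1, of which Oas1d is known as an oocyte protein. The 3 catalytic aspartates in the polymerase core, here counted as positions 76, 78 and 149 of OAS1A, hold the metal ions that the reaction needs.

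The sequences around the first pair of these aspartates differ between the interferon-induced Oas1a and Oas1g and the copies Oas1c, Oas1d, Oas1e and Oas1h, and are shown for that reason. Each line gives 30 coding bases read from the GRCm38 genome in the direction of the gene, and capitals mark the codons that align with positions 76 to 78 of OAS1A. All 6 stretches lie in coding exons on chromosome 5: chr5:120905822-120905851 (minus strand, exon 2) for Oas1a, chr5:120885999-120886028 (minus, exon 2) for Oas1g, chr5:120808186-120808215 (minus, exon 3) for Oas1c, chr5:120915695-120915724 (plus, exon 2) for Oas1d, chr5:120794331-120794360 (minus, exon 2) for Oas1e and chr5:120862566-120862595 (plus, exon 2) for Oas1h.
Oas1a: ggcaagtcaGACGCTGACctggtggtgttc
Oas1g: ggcaggtcaGACGCTGACctggtggtgttc
Oas1c: ggcaagtcaGAGGCCAAAatggtgttgttc
Oas1d: ggcaggtctGAGGCCAACatggtggtgttc
Oas1e: ggaaggtcaGAGGCCAACatggtggtgttc
Oas1h: ggcaggtcaGAGGTCGACctattggtattc
In the encoded proteins, Oas1a, Oas1g and Oas1b kept all 3 aspartates. Oas1d and Oas1e carried D76E and D78N relative to OAS1A, and Oas1c and Oas1f carried D76E and D78K. Oas1h carried D76E and D149H and kept the aspartate at position 78. Each of Oas1c, Oas1d, Oas1e, Oas1f and Oas1h therefore kept 1 of the 3 aspartates. Oas1f was almost silent in these cells, so these residues do not mark the copies high in cluster 3. Oas2 and Oas3 were not compared in this way. Enzyme activity was not measured in these data.

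All 10 genes lie in a single stretch of 191 kb, chr5:120730333-120921652 (GRCm38, GENCODE M21), in the order Oas2, Oas3, Oas1e, Oas1c, Oas1b, Oas1f, Oas1h, Oas1g, Oas1a, Oas1d. The 4 genes with high values in cluster 3 are not next to each other: Oas1e (chr5:120786226-120795530, minus) and Oas1c (chr5:120800194-120812514, minus) are neighbours, Oas1h (chr5:120861421-120873506, plus) is separated from them by Oas1b and Oas1f, and Oas1d (chr5:120914536-120921652, plus) lies beyond Oas1g and Oas1a. Protein identity, taken over aligned residues, was 82.3% between Oas1d and Oas1e, 74.2% between Oas1c and Oas1e and 72.3% between Oas1c and Oas1d. Oas1h was less alike, with 64.5% identity to Oas1d, 61.3% to Oas1c and 61.2% to Oas1e. The interferon-induced pair Oas1a and Oas1g shared 95.9% of residues. Oas1f, which was almost silent in these cells, was about as close to Oas1c (75.6%) as Oas1e was. The map of protein identity shows these groups.

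**Figure D1:**
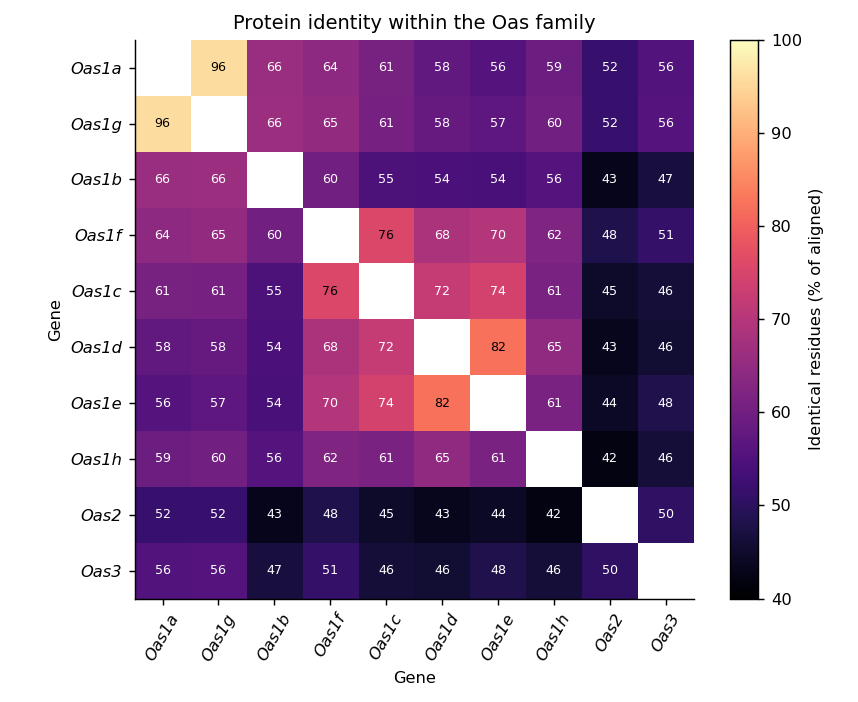
Percentage of identical residues among aligned residues for each pair of the 10 Oas proteins (rows and columns, genes; colour and number, percent). Oas1a and Oas1g are the closest pair at 95.9%, Oas1d and Oas1e follow at 82.3%, and Oas2 and Oas3 share at most 55.8% with any Oas1 protein.

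Such likeness bears on the counts, because reads from a shared stretch can be divided between copies. Of all 31-base words in the annotated transcripts of Oas1a, 68.8% also occurred in another member, and for Oas1g it was 55.1%. The share was 24.2% for Oas1e, 21.8% for Oas1d, 20.7% for Oas1c, 10.7% for Oas1f, 6.82% for Oas1h and 3.20% for Oas1b, and Oas2 and Oas3 shared no such word with other members. Within the family, most such words of Oas1c, Oas1d, Oas1e and Oas1h thus mark 1 member only, whereas values of Oas1a and Oas1g cannot be well separated from each other. Genes outside the family were not searched for these words. GENCODE also lists an antisense gene, Gm43069, across Oas1e and part of Oas1c. Its exons share 227 of the 2405 exon bases of Oas1c and none of Oas1e, and Smart-seq2 keeps no strand, so reads in those 227 bases cannot be told apart.

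Promoters were compared where RefSeq (GRCm38.p6) gave a window of 300 bases, 250 of them before the gene start, which was the case for 6 of the 10 members: Oas1a, Oas1c, Oas1f, Oas1g, Oas1h and Oas3. The core of the interferon-stimulated response element was searched on both strands as GAAA, any 2 bases and GAAA, and 3.44% of all 32851 windows hold it. It occurred in Oas1a (first bases at -20 and -14 from the start, overlapping by 4 bases), in Oas1g (-18 and -12), in Oas3 (-75) and, on the opposite strand, in Oas1c (-114 and -108), but its letters were not found in the windows of Oas1f and Oas1h. The 130 bases before the start are shown for an interferon-induced gene, Oas1a (chr5:120907526-120907655, minus), and for 2 genes high in cluster 3, Oas1c (chr5:120812515-120812644, minus) and Oas1h (chr5:120861292-120861421, plus), with the core in capitals.
Oas1a: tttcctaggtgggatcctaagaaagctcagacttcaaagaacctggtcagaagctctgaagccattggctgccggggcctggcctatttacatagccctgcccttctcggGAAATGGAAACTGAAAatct
Oas1c: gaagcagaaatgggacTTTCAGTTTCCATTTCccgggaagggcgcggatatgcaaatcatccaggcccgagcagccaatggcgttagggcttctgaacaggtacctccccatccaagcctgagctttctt
Oas1h: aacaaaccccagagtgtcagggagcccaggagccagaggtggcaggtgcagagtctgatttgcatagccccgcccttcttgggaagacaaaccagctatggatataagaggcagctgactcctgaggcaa
The gene starts of Oas1c and Oas1b are separated by 120 bases and point away from each other, so the core found before Oas1c stands in the stretch that also precedes Oas1b. The E-box CANNTG is the site of basic helix-loop-helix factors such as FIGLA and SOHLH1. It occurred 2 times in each of the windows of Oas1h (-88 and -19) and Oas1f (-99 and -28). It was not found in those of Oas1a, Oas1c, Oas1g and Oas3, while 72.3% of all windows held at least 1. The homeodomain cores TAATTA (5.29% of all windows) and TAATTG (8.0%) were in none of the 6. A match is only a run of letters and does not show that a factor binds.

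Oas1d had the sharpest pattern. Its level was 0 to 0.143 TPM in the 19 cells of cluster 1 and 0 to 0.494 TPM in the 93 cells of cluster 2, and no cell of either cluster reached 1 TPM. In cluster 3 it ran from 0 to 227.8 TPM with a median of 35.01 TPM, the mean being 51.6 TPM, and 24 of 33 cells (72.7%, exact 95% interval 54.5 to 86.7%) had 1 TPM or more. In those 24 cells the lowest value was 4.13 TPM and the median 56.9 TPM. The clusters overlapped only through the 9 cells of cluster 3 below 1 TPM. The intervals of shares here cover counting error only.

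Oas1c, which shares its start region with Oas1b, behaved much like Oas1d. It was 0 to 0.235 TPM in cluster 1. In cluster 2 it was below 1 TPM in 92 of 93 cells and 18.1 TPM in a single cell, so that the mean was 0.220 TPM. Cluster 3 had a median of 19.1, a mean of 37.4 and a highest value of 212.2 TPM, and 23 of 33 cells (69.7%, interval 51.3 to 84.4%) reached 1 TPM.

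Oas1e was also present in some cells of cluster 2. No cell of cluster 1 had more than 0.350 TPM. In cluster 2 the median was 0 TPM, but 10 of 93 cells (10.8%, interval 5.28 to 18.9%) reached 1 TPM, and these 10 ran from 9.94 to 92.7 TPM with a median of 36.6. In cluster 3 the gene ran from 0 to 183.5 TPM with a median of 52.4 TPM, the mean being 57.01 TPM, and 27 of 33 cells (81.8%, interval 64.5 to 93.02%) reached 1 TPM. The median over those 27 cells was 58.6 TPM. Among positive cells, the range of cluster 2 thus lay inside the range of cluster 3, and the clusters differed mainly in how many cells carried the RNA.

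Oas1h had the highest level of the family and was grouped with the other 3 only after its values had been seen. It was at most 0.182 TPM in cluster 1. In cluster 2 the median was 0 and 10 of 93 cells (10.8%) reached 1 TPM, from 1.02 to 139.2 TPM with a median of 56. In cluster 3 it ran from 0 to 370.9 TPM with a median of 53.9 TPM, the mean being 106.8 TPM, and 25 of 33 cells (75.8%, interval 57.7 to 88.9%) reached 1 TPM, with a median of 100.6 TPM among them. In cluster 3, by mean TPM, the order was Oas1h, Oas1e, Oas1d, Oas1c. By median the upper places were nearly level (53.9 TPM for Oas1h and 52.4 TPM for Oas1e), and the quartiles of neighbours in this order overlapped.

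**Figure D2:**
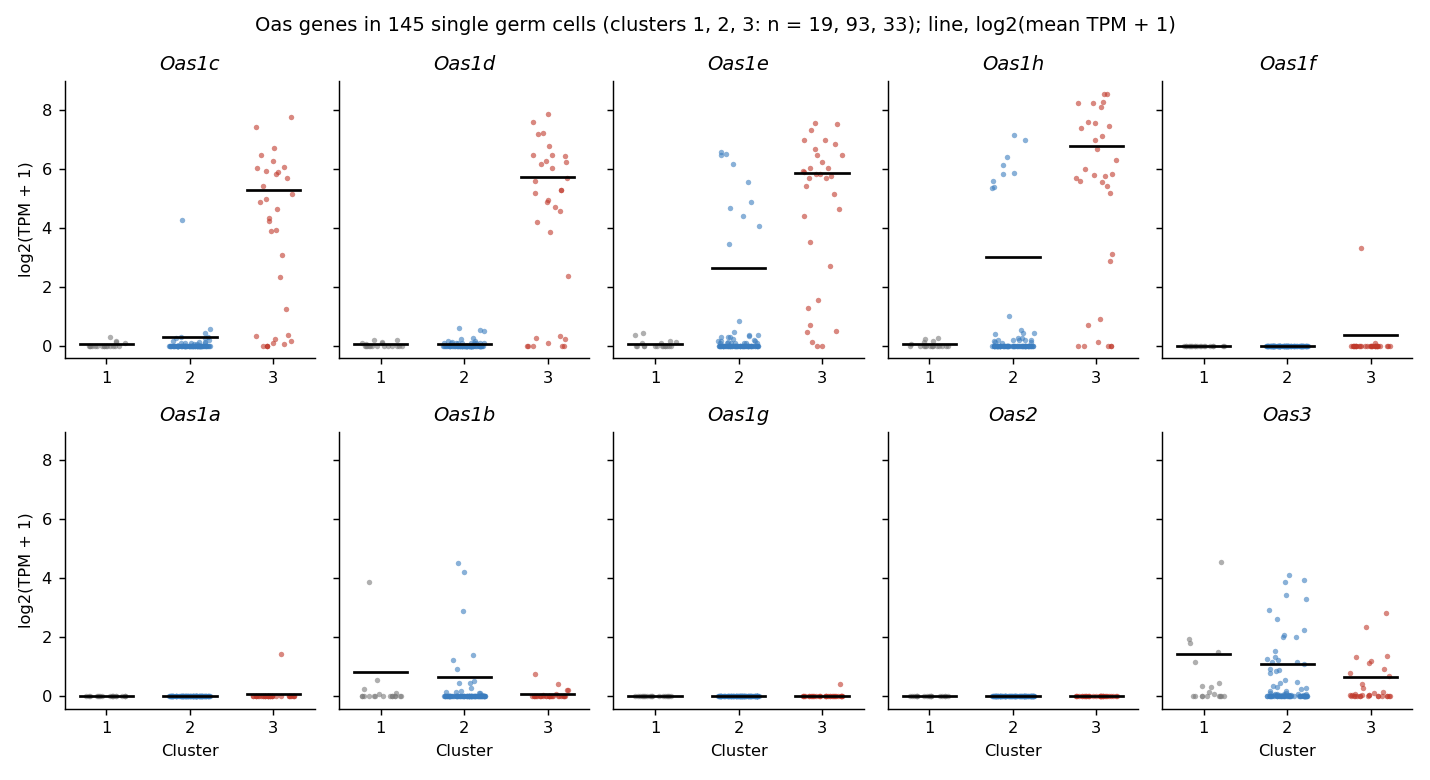
Level of each Oas gene in single germ cells, as log2(TPM + 1), by cluster (19, 93 and 33 cells; points, cells; black line, log2 of the mean TPM + 1). Oas1c, Oas1d, Oas1e and Oas1h reach means of 37.4 to 106.8 TPM in cluster 3, while the other 6 genes stay at means of 0.568 TPM or less there.

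Values from 1 to below 10 TPM were uncommon for these genes. For Oas1d, only 1 cell of cluster 3 lay from 1 to below 10 TPM and 23 lay at 10 TPM or more. For Oas1h the same counts were 2 and 23, for Oas1e 3 and 24, and for Oas1c 3 and 20. In cluster 2, Oas1e and Oas1h each had 1 cell from 1 to below 10 TPM and 9 cells at 10 TPM or more. Lower values were more frequent there, with 21 cells above 0 and below 1 TPM for Oas1e and 15 for Oas1h.

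The differences between clusters are given as log2 ratios of mean TPM after adding 1 TPM to both means, and a ratio of at least 1.5-fold (0.58) is called a difference. From cluster 2 to cluster 3 the ratio was 5.68 for Oas1d, 4.98 for Oas1c, 3.74 for Oas1h and 3.22 for Oas1e. They are set against 11927 coding genes, which were those that averaged 1 TPM or more in cluster 2 or 3 and were at 0.1 TPM in 10 or more cells. Of all those genes 18.1% were higher in cluster 3 by the fold and 29.5% were lower, and their median ratio was -0.20. Because the members were chosen for this contrast, nothing is read from their count of 4 higher or from their place among all genes, and Oas1c and Oas1d entered it only through cluster 3. Oas3 was the only other member in that comparison, with a ratio of -0.43, which is not past the fold. It turned to 0.68 with clusters from variable genes and was -0.67 with marker groups. Marker groups put cells with Zp3 at 1 TPM or more in group 3, other cells with Sohlh1 at 10 TPM or more in group 2, and the rest in group 1. From cluster 1 to cluster 2 the ratio was 2.97 for Oas1h and 2.57 for Oas1e, against 24.1% of 11908 genes higher and 22.7% lower. As differences of mean log2(TPM + 1), these were 0.60 for Oas1h and 0.55 for Oas1e, the latter below the fold. Both genes entered that comparison only through cluster 2, with means of 0.031 TPM (Oas1h) and 0.049 TPM (Oas1e) in cluster 1. Nothing is read from their place among all genes here either. Over the same step Oas1d had a ratio of 0.00 and Oas1c of 0.25, with means below 1 TPM in both clusters, so neither entered that comparison. With the cell left out for Ddx4, which fell in cluster 1, the ratio of Oas1d was -3.06. Clusters from variable genes gave 0.88 for both Oas1c and Oas1d, past the fold, and a pseudocount of 0.1 TPM gave 1.35 for Oas1c.

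At 1 TPM, the 4 genes did not appear together in cluster 2. There, 75 of 93 cells had none of them, 7 cells had Oas1e alone, 7 had Oas1h alone, 3 had both, 1 had Oas1c alone and no cell had Oas1d. Oas1e or Oas1h was thus present in 17 cells and Oas1c or Oas1d in 1, and no cell of cluster 2 combined the pairs. At 0.1 TPM, a threshold added after seeing the data, the counts were 33 and 12, and 7 cells held members of both pairs. In cluster 3, 18 of 33 cells carried all 4 genes, 6 carried 3 of them, 3 carried 2, 3 carried 1 and 3 carried none. Oas1c or Oas1d was seen in 27 cells of cluster 3, of which 25 also had Oas1e or Oas1h.

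The cells were also placed along component 1 of the feature genes and cut into 5 groups of 29. This order comes from the genes that made the clusters, and the last group held only cells of cluster 3, so it shows the same data in finer steps. In the first group, 1 cell had Oas1c at 1 TPM and none had the other 3 genes. Oas1e was present in 0, 0, 1, 9 and 27 cells from the first group to the last. Oas1h was present in 0, 2, 1, 8 and 24 cells. Oas1d was present in 0, 0, 0, 1 and 23 cells, and Oas1c in 1, 0, 0, 0 and 23. For comparison Zp3, which encodes a glycoprotein of the zona pellucida and is one of the feature genes, was present in 0, 2, 7, 14 and 29 cells. Along this order Oas1e and Oas1h were first frequent in the fourth group and Oas1c and Oas1d in the last, as the plot of positive cells along the order shows.

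**Figure D3:**
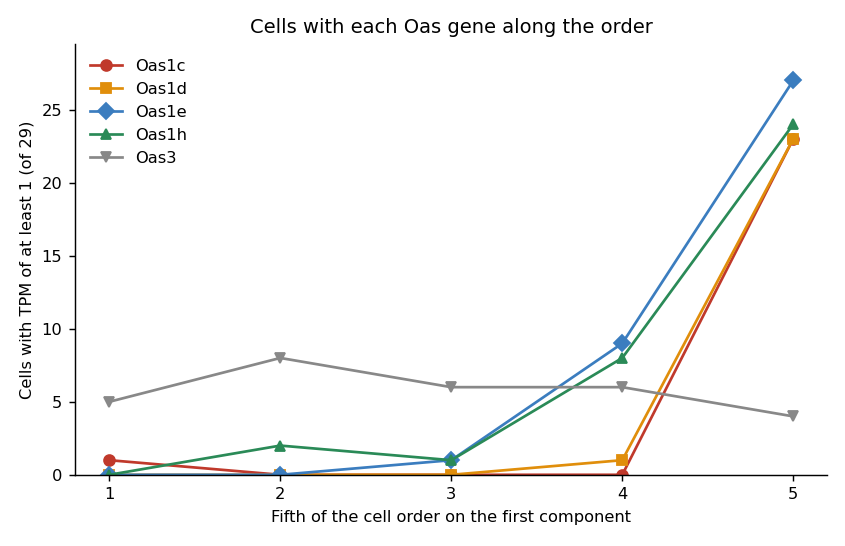
Number of cells with at least 1 TPM of each gene (y axis, of 29) in 5 successive groups of the cell order on component 1 of the feature genes (x axis). Oas1e and Oas1h are in 9 and 8 cells of the fourth group, where Oas1d is in 1 and Oas1c in 0, and Oas3 is in 4 to 8 cells of every group.

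In cluster 2, 8 of the 18 cells with any of the 4 genes had Zp3 at 1 TPM, against 11 of the 75 cells with none. Oas1c, Oas1d and Oas1e were chosen for standing high with zona pellucida genes, and Zp3 is a feature gene. Nothing is therefore read from this link. Those 18 cells were also deeper, with a median of 9734471 reads against 8784260, and over all cells kept Zp3 had a rho of 0.41 with the reads per cell. All 33 cells of cluster 3 had Zp3 at 1 TPM or more. In the 3 with none of the 4 genes it was at 332.8 to 362.9 TPM, inside the range of the other 30 (1.06 to 1453.5 TPM, median 447.6 TPM). Those 3 cells had 5182273 to 11437565 reads on genes and the other 30 had 7762211 to 15702321. The part of depth in these differences was not tested.

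**Figure D4:**
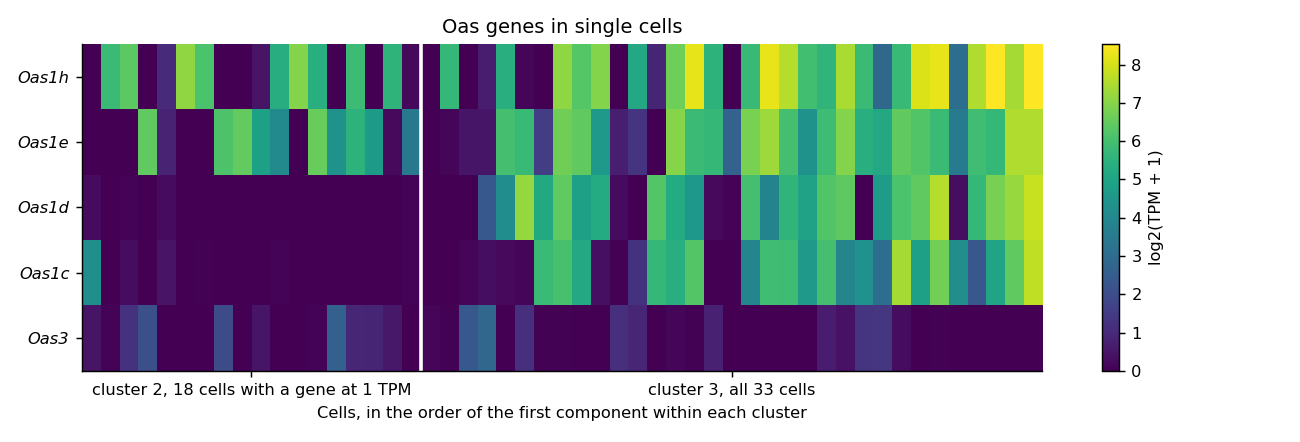
Levels of Oas1h, Oas1e, Oas1d, Oas1c and Oas3 (rows) as log2(TPM + 1) in colour, in the 18 cells of cluster 2 with any of the first 4 genes at 1 TPM and in all 33 cells of cluster 3 (columns, in the order of the first component within each cluster; white line, border between clusters). Of the cells of cluster 2, 17 show Oas1h or Oas1e and 1 shows Oas1c alone, and 18 cells of cluster 3 show all 4.

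Within the 33 cells of cluster 3 the 4 genes varied together. Spearman's rho across cells was 0.70 for Oas1e and Oas1h, 0.64 for Oas1c and Oas1d, 0.62 for Oas1c and Oas1h, 0.60 for Oas1c and Oas1e, 0.59 for Oas1d and Oas1e and 0.56 for Oas1d and Oas1h. With Zp3 in the same cells rho was 0.25 for Oas1c, 0.21 for Oas1d, 0.35 for Oas1e and 0.27 for Oas1h. The cells also differ in depth: with the reads per cell, rho was 0.65 for Oas1c, 0.62 for Oas1e, 0.48 for Oas1h and 0.47 for Oas1d, against 0.22 for Zp3. After every cell was drawn down to 1000000 reads, rho among the 4 genes was 0.50 to 0.75. The cells are not independent replicates, and these values are a description.

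The 4 paralogues made up nearly all Oas RNA of cluster 3. In cluster 3 the mean of all 10 members summed to 253.8 TPM, of which Oas1h held 42.1%, Oas1e 22.5%, Oas1d 20.3% and Oas1c 14.7%, together 99.6%. The sum of these 4 ran from 0 to 991.1 TPM per cell with a median of 196.0 TPM. The 5 interferon-induced members summed to 0 to 6.0 TPM per cell, with a median of 0.107 TPM. Among the 32 cells of cluster 3 with at least 1 TPM of Oas RNA, the highest member was Oas1h in 15, Oas1e in 8, Oas1c, Oas1d and Oas3 in 3 each. In cluster 2 the family summed to a mean of 14.2 TPM, of which Oas1h held 49.7% and Oas1e 36.8%. In estimated reads that order turned, with 47.4% for Oas1e and 38.4% for Oas1h. Cluster 1 averaged 2.56 TPM in sum, of which 65.3% was Oas3, but 1 cell held 36.01 TPM and the mean was 0.699 TPM without it. In estimated reads, which count longer transcripts more, the order in cluster 3 was closer, with 27% for Oas1h, 26.2% for Oas1d, 24.5% for Oas1e and 21.8% for Oas1c.

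Oas3, which encodes the largest OAS protein, was the only interferon-induced member found in many cells, and at low level. It was 0 to 22.3 TPM in cluster 1 (mean 1.67), 0 to 16.2 TPM in cluster 2 (mean 1.11) and 0 to 6.0 TPM in cluster 3 (mean 0.568), with medians of 0.043, 0 and 0.025 TPM. At least 0.1 TPM was seen in 9 of 19, 31 of 93 and 12 of 33 cells. The highest value of cluster 1 rested on 44.6 estimated reads at an effective transcript length of 53.8 bases, against 276 reads at 974 bases in cluster 2. The clusters overlapped fully, and the ratio from cluster 1 to cluster 2 of -0.34 became 0.47 without a single cell, 0.50 in CPM and 0.77 with marker groups. Within cluster 3 rho with Oas3 was -0.28 for Oas1c, -0.34 for Oas1d, -0.34 for Oas1e and -0.47 for Oas1h, while Oas3 itself had a rho of -0.43 with the reads per cell.

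Oas1b was found at 0.1 TPM in 19 cells and reached 1 TPM in 6, 5 of them in cluster 2 and none in cluster 3. The highest value, 22.0 TPM, rested on 29.7 estimated reads. In the 6 cells the median effective transcript length in the files was 139.6 bases, so few reads gave a high TPM. In this strain the annotation holds Oas1b as a polymorphic pseudogene.

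Oas1a, Oas1f, Oas1g and Oas2 were absent or nearly so. Oas2, which encodes the other long OAS protein, had no read in any cell kept. By a floor of 3 counts this allows a read in up to 2.07% of cells, which limits cells with a read and not cells that express the gene. Oas1a had 40 reads (1.69 TPM) in 1 cell of cluster 3 and none elsewhere. That cell stood among the highest of all for Oas1d (189.2 TPM), Oas1h (300.2 TPM) and Oas1c (103.7 TPM). Oas1f had 55 reads (8.97 TPM) in 1 cell of cluster 3 and 1 read in another, and Oas1g had 2 reads in the first of these cells, where Oas1h was at 370.9 TPM. The cell with the single Oas1f read had Oas1e at 50.6 and Oas1h at 45.3 TPM but Oas1c at 0. Whether sequence shared with other members gave any of these reads was not tested.

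Genes that act with the OAS enzymes were measured in the same cells. Abce1, an ATP-binding protein of ribosome recycling, was in 98.6% of cells, averaging 107.7, 67.2 and 45.4 TPM from the first cluster to the last, of which the first step (-0.67) is past the fold and the second (-0.55) is not. Pde12, a phosphodiesterase that degrades oligoadenylates, was in 76.6% of cells, with a mean of 2.93 TPM in cluster 3. The Oas-like gene Oasl1 was in 10 cells with a mean of 1.17 TPM in cluster 3, where 3 cells carried it and 1 held 22.7 TPM, and Oasl2 reached 214.1 TPM in 1 cell of cluster 2 but stayed below 1 TPM in all others.

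Of 10 interferon ligands none was found in 10 or more cells, and 7 of them, Ifnb1 and Ifng included, were below 0.1 TPM in every cell. The receptor gene Ifnar1 was in 92.4% of cells with a mean of 40.01 TPM in cluster 3, or 26.6 TPM without 1 cell at 469.2 TPM, while its partner Ifnar2 was in 7 cells. Of the signalling genes, Jak1 was in 95.9% of cells and Irf3 in 85.5%. Irf7, itself strongly induced by interferon, was in 2. Of the 23 other interferon-stimulated genes 16 were at 0.1 TPM in 10 or more cells, as were 71.4% of all coding genes. The most widespread was Samhd1, in 91.03% of cells with a mean of 41.1 TPM in cluster 3, and Bst2 had a mean of 21.9 TPM there. Isg15 was in 30 cells with a mean of 1.26 TPM in cluster 3, or 0.676 TPM without 1 cell at 19.9 TPM. The 4 genes Ifit2, Ifit3, Mx2 and Rtp4 reached 0.1 TPM in no cell.

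Some genes of the pathway list had higher means in cluster 3 and some had lower ones. Of 61 listed genes 32 entered the comparison of clusters 3 and 2, and 11 were higher by the fold, 3 lower and 18 neither, where 18.1% of all genes were higher and 29.5% lower. The median ratio was 0.14 against -0.20 over all genes. Among the higher genes, Oasl1, Il10rb, Mb21d1, Cmpk2 and Ifitm3 averaged 0.048 to 0.471 TPM in cluster 2 and entered only through cluster 3. The lower genes, Oasl2, Ifi27 and Herc6, averaged below 1 TPM in cluster 3 and entered only through cluster 2. Nothing is therefore read from these counts against the shares of all genes. Without the 1 cell that mattered most to each gene, 7 of the 11 stayed higher and 2 of the 3 stayed lower. Oasl1 (1.05 to 0.52), Il10rb (0.79 to 0.43), Mb21d1 (0.67 to 0.31) and Adar (0.91 to 0.58, just under the fold) were the 4 lost, and Oasl2 went from -1.60 to 0.08. Of the genes called neither, Ddx58 (0.30 to -1.12) and Mavs (0.14 to -0.71) then passed the fold as lower. The same removal was not run over all genes, so these counts have no share to stand beside. The 5 higher members among the interferon-stimulated genes were Cmpk2 (ratio 2.33, mean 4.78 TPM in cluster 3), Mx1 (2.10, 7.69 TPM), Ifitm3 (1.91, 3.62 TPM, or 1.38 and 2.22 TPM without 1 cell), Trim25 (1.89, 10.4 TPM) and Adar (0.91, 14.4 TPM). Ifi27 (-1.74) and Herc6 (-0.84) were lower. Irf1, a transcription factor of the interferon response, had a ratio of 1.66 and a mean of 33.3 TPM in cluster 3, and Zbp1, a nucleic acid sensor, had 1.57 and 5.21 TPM. Cmpk2 averaged 3.71 TPM in cluster 1 and 0.146 TPM in cluster 2, so that cluster 3 stood close to cluster 1. From cluster 1 to cluster 2, 30 listed genes were compared, of which 7 were higher and 9 lower, where 24.1% of all genes were higher and 22.7% lower. The median ratio was -0.26 against -0.02 over all genes. Here too some genes on each side entered through 1 cluster only, such as Oasl2 and Zbp1 among the higher and Cmpk2 and Mb21d1 among the lower. These means rest on few cells for some genes, with Cmpk2 at 0.1 TPM in 18 cells, Ifitm3 in 16 and Zbp1 in 20.

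**Figure D5:**
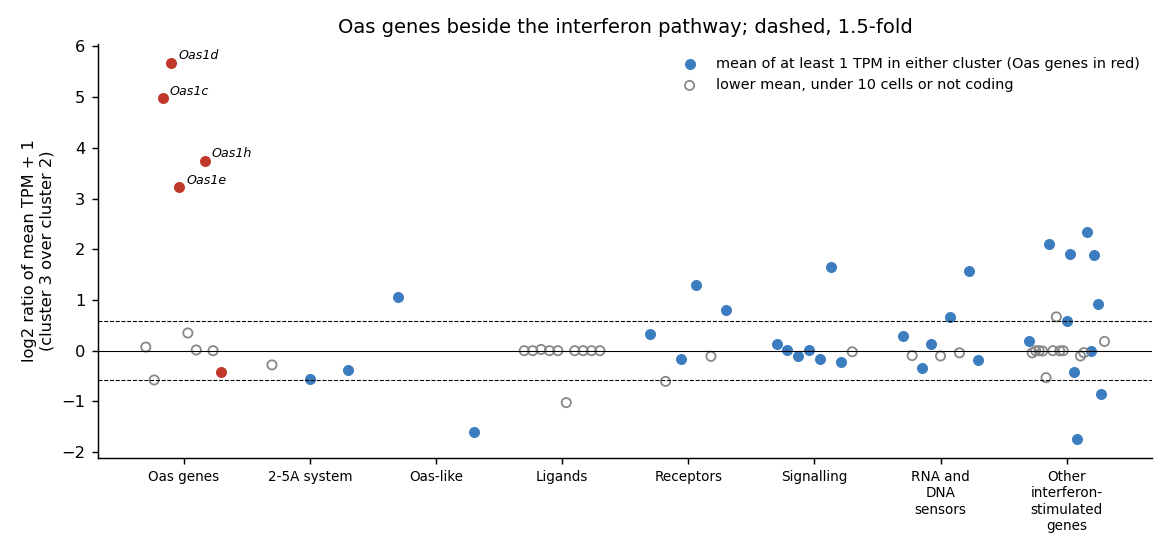
Difference between clusters 3 and 2 for the Oas genes and the interferon pathway lists, as the log2 ratio of mean TPM + 1 (y axis; filled points, coding genes that average 1 TPM or more in cluster 2 or 3 and are at 0.1 TPM in 10 or more cells, Oas genes in red; open points, the rest; dashed lines, 1.5-fold). Oas1d, Oas1c, Oas1h and Oas1e stand at 5.68, 4.98, 3.74 and 3.22, and the highest value of the lists is 2.33 for Cmpk2.

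The genes next to the family had low levels or small differences. Beyond Oas2 lie Dtx1 and Rasal1, with means of 0.229 and 0.423 TPM in cluster 3 and ratios from cluster 2 of -0.11 and 0.16. On the other side, Rph3a, an effector of small GTPases in secretion, had 1.02 TPM in cluster 3 and a ratio of 0.90, with 5 of 33 cells at 1 TPM or more. One cell held 22.3 TPM, and without it the mean was 0.354 TPM and the ratio 0.33, below the fold. Ptpn11, which encodes the phosphatase SHP2, had 13.5 TPM and a ratio of 0.22.

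Outside the family, the genes whose pattern over all cells kept was most like a paralogue were oocyte genes in part. By Spearman's rho, Oas1d was followed most closely by Zp1 (0.66), Zp3 (0.66), Padi6 (0.62), Dpf3 (0.61) and Prr13 (0.60). Zp1 and Zp3 encode zona pellucida glycoproteins. Zp1, Zp3 and Nlrp14 were feature genes and so helped to define the clusters. Oas1c, Oas1d and Oas1e were also chosen for standing high with zona pellucida genes, so nothing is read from oocyte genes being in these lists. Padi6 encodes a protein of the oocyte cytoplasmic lattices. For Oas1c the closest were Zp1 (0.73), Zp3 (0.67), Padi6 (0.65), Atp2c2 (0.64) and Ccdc69 (0.64). Oas1e had another order, with Dpf3 (0.69), Nlrp14 (0.69), Lurap1l (0.68), Zp1 (0.68) and Unc13c (0.67), and Oas1h, added after its values were seen, had Nlrp14 (0.67), Zp3 (0.66), Asgr2 (0.65), Unc13c (0.64) and Lurap1l (0.63). Nlrp14, Unc13c and Lurap1l, near the top for Oas1e and Oas1h, averaged 5.57, 1.35 and 2.26 TPM in cluster 2 and 93.2, 17.2 and 26.8 TPM in cluster 3. Ccdc69, in the list of Oas1c alone, had 0.019 and 25.1 TPM. By Pearson's r of log2(TPM + 1), 1 of the 5 genes named for Oas1d stayed among the closest 5, as did 3 for Oas1c, 3 for Oas1e and all 5 for Oas1h. The cells share clusters and differ in depth, and the differences between these values were not tested.

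The cells were checked for other cell types with fixed marker lists. Of 6 germ cell markers, Ddx4 was in every cell kept because cells were kept on it, so it is no check. Dazl and Figla were at 0.1 TPM or more in every cell. Dppa3 and Kit were each at that level in 15 of 19 cells of cluster 1, 92 of 93 of cluster 2 and all of cluster 3. Mael was in all cells of clusters 1 and 2 and in 32 of 33 of cluster 3. Of 8 macrophage markers Adgre1 was at 0 TPM in every cell, C1qa was at most 0.530 TPM, and the list summed to 0 to 68.7 TPM in cluster 3 (median 1.32), 0 to 76.8 in cluster 2 (median 0.064) and 0 to 56 in cluster 1 (median 0.412), with C1qb at 0.1 TPM in 15 of 33 cells of cluster 3. In cluster 3, 14 of the 15 cells with a macrophage sum below 1 TPM had at least 1 of the 4 genes, and 16 of the 18 other cells did. The median sum of the 4 genes was 196.0 TPM in the former and 189.0 TPM in the latter. Pregranulosa markers summed to a median of 0.773 TPM and at most 13.7 TPM in cluster 3, and Foxl2 was found in none of its cells. The 20 cells of cluster 3 with a pregranulosa sum below 1 TPM all had at least 1 of the 4 genes, and the 3 cells with none of them were among the 13 with a sum of 1 TPM or more. The median sum of the 4 genes was 234.6 TPM in those 20 cells and 134.9 TPM in the 13. Split in the same way by stroma markers, it was 274.0 TPM in 18 cells below 1 TPM and 126.9 TPM in the other 15, with at least 1 of the 4 genes in 16 and 14 of them. The part of these markers in the result was not tested. Stroma markers summed to at most 269.3, 378.9 and 81.5 TPM in clusters 1, 2 and 3, and pregranulosa markers to at most 11.3 and 81.6 TPM in clusters 1 and 2. Globin RNA was found in many libraries of every cluster, with 29 cells at 1000 TPM or more. Blood or endothelial markers, globins included, summed to at most 324516, 48544 and 43740.6 TPM (medians 41.3, 70.4 and 29.9). Because TPM has a fixed sum, high globin lowers the other values of that cell. Reads on genes ran from 4074810 to 26855273 per cell, with medians of 9615238, 8965502 and 10711092 in clusters 1, 2 and 3, and the median number of genes with a read was 12424, 12207 and 14506.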

How the data were processed

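Single cells of P0.5 ovaries were amplified by Smart-seq2 with ERCC spike-ins. The authors screened libraries by qPCR for Vasa and Foxl2, quantified reads with Salmon (with its sequence bias correction) on mm10 plus spike-ins, and deposited TPM and estimated counts per gene symbol. The annotation release is not given in the sources used here. Comparisons over all genes used the 19780 symbols that GENCODE M21 or RefSeq name as coding; 24295 symbols matched neither. The study removed a few cells by reads, mitochondrial share and spike-in share. Recomputed here from the deposited estimated counts, those limits passed all 146 libraries, so only the Ddx4 rule was applied, and the study's list of kept cells was not used here. Cells were clustered with Seurat 5.3.0 under R 4.3.3, from 10 principal components of the 20 feature genes with 20 neighbours at resolution 0.2. This was the lowest resolution tried that gave 3 clusters. The sources used here do not give the study's components, neighbours or resolution, so these were set here. Taf4b was added to the feature genes that the study's text lists, to reach its number of 20. Detection meant 0.1 TPM, presence 1 TPM. Values were computed with Python 3.11.15 and pandas 2.3.3, shares with exact Clopper-Pearson 95% intervals, and the ratio calculation was tested on simulated data. Proteins were translated from GENCODE M21 coding exons and aligned with Biopython 1.88. Members, lists, sets and the named genes (the family, the pathway list, neighbours, the 5 most alike genes, markers) were chosen with earlier results of these data known. Alternatives were other scalings, groupings, thresholds and left-out cells, some chosen after seeing the data. Some genes of the pathway list are counted but not reported here by name.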

Additional observations from a re-analysis of the deposited data

Results flagged for a closer look

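The cell that was left out for its lack of Ddx4 stood out for Oas1d. It held 151.4 TPM of Oas1d from 423 reads, a value that only 2 of the other cells passed, while Oas1c, Oas1e and Oas1h were at 0. The value was flagged because this cell enters no comparison above, and it lies above everything seen in cluster 1, where the feature genes had placed the cell. Of 6 germ cell markers 5 were at 0, and Dazl was at 0.221 TPM. Stroma markers summed to 234.8 TPM and pregranulosa markers to 87.4 TPM, with Foxl2 at 0. The library had 1408459 reads on genes, against 4074810 or more in the others, with 12990 genes detected. The cause was not tested.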

How the results depend on the processing

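The ratios of Oas1c, Oas1d, Oas1e and Oas1h from cluster 2 to cluster 3 stayed above 1.5-fold under the alternatives run (putting back the left-out cell, which fell in cluster 1, could not move them), from 3.53 to 6.87, 4.14 to 8.65, 1.93 to 4.25 and 2.50 to 4.78. A ratio was called moved at over 0.58 on the log2 scale. With a pseudocount of 0.1 TPM, Oas1c became 6.87 and Oas1d 8.65, and from cluster 1 to cluster 2 Oas1e became 5.16 and Oas1h 5.78. In CPM Oas1c was 6.06 and Oas1d 6.51. Scaled by spike-ins, Oas1c, Oas1d, Oas1e and Oas1h were 6.10, 6.84, 4.25 and 4.78. As differences of mean log2(TPM + 1) they were 3.53, 4.14, 3.98 and 4.37, and from cluster 1 to cluster 2 Oas1e was 0.55, below the fold, and Oas1h 0.60. Clusters from 2000 variable genes gave 3.55, 4.39, 1.93 and 2.50, and from cluster 1 to cluster 2 3.53 for Oas1e and 0.88 for both Oas1c and Oas1d, past the fold. Marker groups gave 4.32 for Oas1c and 5.04 for Oas1d, and 2.01 for Oas1h from cluster 1 to cluster 2. These groups are cut on Zp3, and members were chosen for going with zona pellucida genes, so they are no independent alternative. Each cell left out in turn gave 4.75 to 5.23, 5.52 to 5.72, 3.12 to 3.46 and 3.63 to 4.03, and from cluster 1 to cluster 2 2.33 to 2.59 for Oas1e and 2.68 to 2.98 for Oas1h.

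With the left-out cell included, Oas1d from cluster 1 to cluster 2 was -3.06. Oas3 had 0.68 from cluster 2 to cluster 3 with variable-gene clusters. Oas1c, Oas1d and Oas1e held 54.7% of Oas TPM over all cells and 57.5% in cluster 3, and 70.3% and 72.5% of estimated reads. At 0.1 TPM, 33 cells of cluster 2 had Oas1e or Oas1h and 12 had Oas1c or Oas1d, against 17 and 1 at 1 TPM. Without the 34 cells with Foxl2 or at least 1000 TPM of globin, chosen after seeing the data, the counts were 14 and 1. Drawn to 1000000 reads, 72.7% of cells of cluster 3 had a read of Oas1d. Depth limits values near 0.1 TPM, which rest on a few reads.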
